A study of Homo sapiens with 24 samples.

Results

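The genes described here are 10 immediate early genes: EGR1, FOS, FOSB, JUN, JUNB, ATF3, IER2, IER3, DUSP1 and DUSP2. They were chosen by name, with earlier results of these data known, and all 10 were measured among 12165 genes. Each gene was represented by the probe set (the group of short probes that measures one transcript) with the highest mean intensity of those assigned to that gene alone. The arrays hold 15 such probe sets for the 10 genes. RNA from 4 human acute myeloid leukemia (AML) cell lines was hybridised to 24 Affymetrix HT U133A arrays. The lines were MOLM-14, which has monocytic features, carries MLL-AF9 and has an internally duplicated FLT3, the monocytic U937, the promyelocytic HL-60 and the myeloblastic KG-1. Each line received the solvent DMSO or R406 for 24 h, and the 8 groups had 3 arrays apiece. R406, the metabolite through which fostamatinib acts, blocks SYK, a tyrosine kinase downstream of immune receptors and integrins, and several further kinases. The dose was 4 µM by the treatment protocol, although the design text gives the same figure in mM. Each disease background is represented by a single cultured line. Whether the 3 arrays of a group stem from separate cultures is not stated, and every p-value here therefore rests on array-to-array spread that may be technical.

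Immediate early genes are transcribed within minutes of a stimulus, without new protein synthesis, when kinase cascades such as the ERK, JNK and p38 pathways act on factors already bound to their promoters, among them serum response factor with its ELK partners and CREB/ATF proteins. Their messages are short-lived. FOS, FOSB, JUN, JUNB and ATF3 are leucine zipper proteins that pair into AP-1 and related complexes, EGR1 is a zinc finger transcription factor, and DUSP1 and DUSP2 are phosphatases that switch MAP kinases off again. In myeloid cells EGR1 and JUN are known for roles in monocytic differentiation.

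RefSeq promoter entries (GRCh38.p14) were matched by symbol for 9 of the 10 genes, all but IER3, with 10 entries because ATF3 had more than 1. The 250 bases before each start were searched on both strands. The CArG box, the serum response factor motif of paired C and paired G around a run of A or T, was found before EGR1 alone of these genes, with 2 matches beginning 105 and 83 bases before the start. It was present in 1.16% of the 35116 promoters in the table. The core TGACG of the cyclic AMP response element was found before EGR1, FOS, FOSB, JUN, JUNB, IER2 and DUSP1, which is 7 of 9 genes, and before 21.2% of all promoters. The full element TGACGTCA, which contains that core, was found before DUSP1 (1.65% of promoters), and the related TGACATCA before JUN and ATF3 (2.37% of promoters). The AP-1 motif TGAGTCA was found before 0 of the 9 genes and in 4.2% of promoters. TATAAA was found before ATF3, DUSP1, FOS, FOSB and JUNB, which is 5 of 9 genes, and in 10.7% of promoters. A match is a description of the letters and not a site of binding, and no match says only that these letters are not in this window. The 180 bases before the start of EGR1, FOS, JUN and JUNB are printed because these transcription factor genes were all higher with R406 in HL-60. IER2 and IER3 were higher there too and are not printed. The same stretch of DUSP1 and DUSP2 is printed because of these related phosphatases DUSP2 was called in HL-60 and DUSP1 was not. Sequences run 5′ to 3′ on the strand of the gene, with the CArG boxes, TGACG on either strand, TGACGTCA and TGACATCA in capitals.
EGR1, chr5:138465299-138465478, forward strand: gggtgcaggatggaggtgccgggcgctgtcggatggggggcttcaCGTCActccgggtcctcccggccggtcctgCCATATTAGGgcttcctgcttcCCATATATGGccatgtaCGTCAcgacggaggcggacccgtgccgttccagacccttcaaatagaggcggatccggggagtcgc
FOS, chr14:75278648-75278827, forward strand: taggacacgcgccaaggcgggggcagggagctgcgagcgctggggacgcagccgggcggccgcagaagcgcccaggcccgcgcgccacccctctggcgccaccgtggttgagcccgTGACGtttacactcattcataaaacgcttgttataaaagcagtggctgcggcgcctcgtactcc
JUN, chr1:58784048-58784227, reverse strand: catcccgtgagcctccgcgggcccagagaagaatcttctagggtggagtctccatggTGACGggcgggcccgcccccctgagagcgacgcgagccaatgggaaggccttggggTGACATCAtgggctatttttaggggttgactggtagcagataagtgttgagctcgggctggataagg
JUNB, chr19:12791306-12791485, forward strand: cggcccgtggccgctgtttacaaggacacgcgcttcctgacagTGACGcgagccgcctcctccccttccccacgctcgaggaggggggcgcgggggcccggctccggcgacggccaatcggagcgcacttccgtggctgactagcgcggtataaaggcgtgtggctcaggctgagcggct
DUSP1, chr5:172771196-172771375, reverse strand: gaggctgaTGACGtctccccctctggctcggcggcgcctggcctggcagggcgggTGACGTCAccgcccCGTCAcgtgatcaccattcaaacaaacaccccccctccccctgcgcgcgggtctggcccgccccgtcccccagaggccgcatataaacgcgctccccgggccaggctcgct
DUSP2, chr2:96145441-96145620, reverse strand: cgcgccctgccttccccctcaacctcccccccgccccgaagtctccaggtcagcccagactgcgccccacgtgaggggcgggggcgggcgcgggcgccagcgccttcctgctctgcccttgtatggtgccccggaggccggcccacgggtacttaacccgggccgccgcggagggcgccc

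All intensities were between 3.41 and 12686, with array medians of 19.1 to 21.4. The pan-leukocyte gene PTPRC was at 444 to 1033 in the DMSO groups. The myeloid genes SPI1 and ANPEP were at 15.1 to 35.4 and 7.16 to 571, with ANPEP lowest in MOLM-14. MPO, a granule enzyme of promyelocytes, was at 6416 in HL-60 against at most 44.0 elsewhere, and PRTN3 at 785 against at most 358. The granule genes ELANE, CTSG and AZU1 were not highest in HL-60. ELANE was at 3034 in MOLM-14, 2944 in U937 and 2642 in HL-60. CTSG was at 6414 in U937 and 817 in HL-60, and AZU1 at 792 in MOLM-14 and 160 in HL-60. The progenitor marker CD34 was at 613 in KG-1 against at most 18.1. CD14, a monocyte marker, was at most 7.40 in the DMSO groups outside HL-60, including the monocytic MOLM-14 and U937, and was at 279 in HL-60. Of 14 markers of T, B, natural killer, erythroid, stromal and epithelial cells, 12 were measured and 2 had means above the array medians in every DMSO group, NKG7 and COL1A1, with CD3D also above them in KG-1. The summed level of the 12 went from 256 to 277 with DMSO and 399 to 425 with R406 in MOLM-14, from 909 to 938 and 1041 to 1096 in U937, from 253 to 267 and 231 to 245 in HL-60, and from 401 to 410.1 and 619.8 to 747 in KG-1. Without NKG7, the other 11 summed to 105 to 167 over the 24 arrays. The log2 ratio of 3′ to 5′ ACTB control probe sets, a measure of RNA integrity, differed between R406 and DMSO by 0.34 in MOLM-14, -0.039 in U937, -0.13 in HL-60 and 0.12 in KG-1 (exact two-sided permutation p of 0.1, 0.6, 0.1 and 0.1, where 0.1 is the smallest 3 against 3 allows). The same ratio of GAPDH differed by 0.078, -0.0058, -0.011 and 0.10 (exact p of 0.1, 1, 0.9 and 0.1). The part of these measures in the results below was not tested. KG-1 R406 replicate 2 lay furthest from its group, with an SD of its log2 deviations of 0.173 against 0.0902 to 0.162 for the other arrays.

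The response of these genes to R406 differed in direction from line to line. In HL-60, 7 of the 10 were higher with R406 and 0 were lower at a limma adjusted p under 0.05 (Benjamini-Hochberg over all 12165 genes). The background in HL-60 was 7.19% of all genes higher and 7.97% lower (15.2% in either direction), and at an unadjusted p under 0.05 the members' counts were also 7 and 0. In MOLM-14, 3 were higher and 6 were lower, where 31.1% of all genes were higher and 25.0% lower (56.2% in either direction), so that a call in this line sets a gene less apart. In U937, 2 were lower and 0 higher, against 5.43% and 6.12% of all genes (11.5% in either direction), and at an unadjusted p under 0.05 5 were lower and 0 higher. In KG-1, 1 was higher and 2 were lower, against 23.6% and 20.9% of all genes (44.5% in either direction). The 3 R406 arrays lay wholly above or wholly below the 3 DMSO arrays for 7 members in HL-60 (32.8% of all genes), 9 in MOLM-14 (57.8%), 5 in U937 (34.0%) and 3 in KG-1 (49.8%). The median log2 fold change of the 10 genes was 0.98 in HL-60, -0.35 in MOLM-14, -0.21 in U937 and -0.080 in KG-1. The median over all genes was -0.0029, 0.068, 0.0027 and 0.020 in the same order. Of the 40 tests, 21 gave a call, 11 of them higher and 10 lower. No member was called the same way in all 4 lines, and each was called in at least 1 line. EGR1, IER3 and DUSP2 were lower in MOLM-14 and higher in HL-60, as were 219 of the 12165 genes in all, and another 219 genes had the reverse pair of directions. Some lineage markers moved in the same arrays. In HL-60 the monocyte marker CD14 rose from 279 to 853. The summed level of 4 measured monocytic markers, CD14 among them, went from 294 to 414 with DMSO to 886 to 946 with R406. The others, CSF1R, FCN1 and CD68, were not called there (log2 fold change 0.11, 0.13 and 0.36, limma adjusted p = 0.643, 0.647 and 0.0525). The sum of 5 granule genes in HL-60 went from 10530.2 to 11221 down to 5848 to 6360.5. Of these, MPO, at a mean of 6416 with DMSO and 4981 with R406, was not called (log2 fold change -0.37, limma adjusted p = 0.117). ELANE, PRTN3, AZU1 and CTSG were lower. In MOLM-14 the monocytic sum went from 46.9 to 49.8 with DMSO to 99.7 to 128 with R406. CSF1R was at a mean of 17.1 and 74.1 in these groups, and CD68 also rose (log2 fold change 0.90). CD14 (0.091) and FCN1 (0.042) were not called there. The granule sum in MOLM-14 went from 7223 to 7824 down to 4423 to 4776. Of the granule genes CTSG was not called in MOLM-14 (log2 fold change -0.34, limma adjusted p = 0.0658), while MPO, ELANE, PRTN3 and AZU1 were lower. The sum of 3 progenitor markers in MOLM-14 went from 39.7 to 45.2 with DMSO to 145 to 200.2 with R406. Of these markers KIT was called in MOLM-14 (log2 fold change 2.94), while CD34 (-0.11) and SPINK2 (0.21) were not. In U937 the monocytic sums overlapped (104 to 120.4 and 106 to 137), and in KG-1 the progenitor sum went from 1022 to 1163 with DMSO to 2043 to 2552 with R406. The part of these markers in the members' results was not tested. Because RNA was taken from whole cultures, a lower level in fewer cells and a lower level in every cell cannot be told apart.

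**Figure D1:**
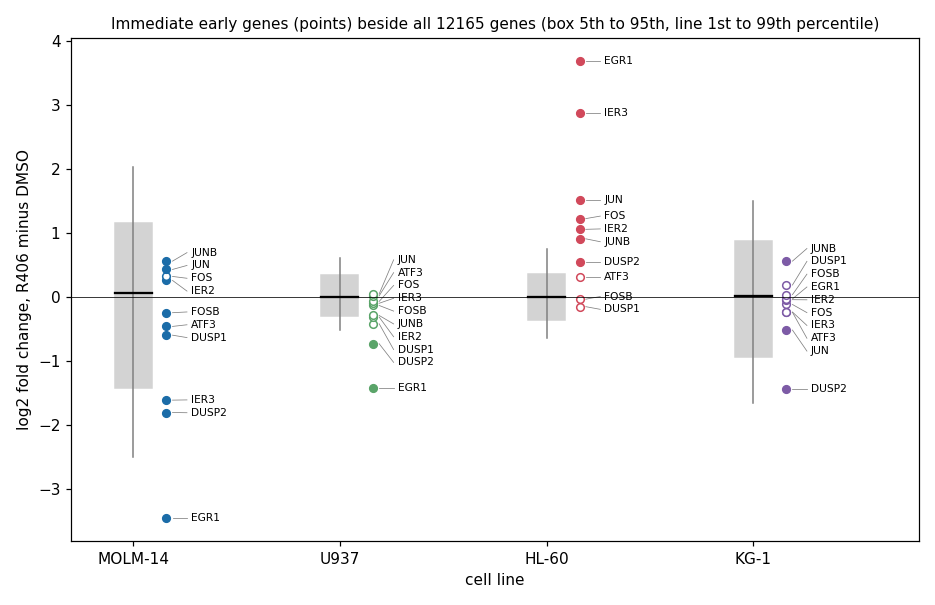
The log2 fold change (R406 minus DMSO, vertical axis) of each of the 10 genes (points, filled where the limma adjusted p was under 0.05) in each line, beside the spread of all 12165 genes (box from the 5th to the 95th percentile, line from the 1st to the 99th). In HL-60, where 95% of all genes lay below 0.36, EGR1 and IER3 stood at 3.69 and 2.86, whereas in MOLM-14 the spread of all genes was wider and EGR1 lay at -3.45.

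EGR1 had the widest range of R406 effects of the 10 genes. In MOLM-14 its intensity was 186, 128 and 162 on the 3 DMSO arrays and 13.0, 12.7 and 14.8 on the 3 R406 arrays. All R406 arrays lay far below all DMSO arrays and below the array medians. The mean fell 11.8-fold, from 159 ± 29.0 to 13.5 ± 1.12 (SD, n = 3), a log2 fold change of -3.45 ± 0.19 (SE, limma adjusted p = 2.51e-13). In HL-60 the arrays read 46.9, 62.7 and 36.9 with DMSO and 686, 682 and 526 with R406. Here the groups were far apart in the opposite direction. The mean rose 12.9-fold, from 48.9 ± 13.0 to 631 ± 91.0, a log2 fold change of 3.69 ± 0.19 (limma adjusted p = 7.69e-12), the highest of all 12165 genes in that line. In U937 the DMSO arrays read 31.3, 43.6 and 51.2 and the R406 arrays 13.6, 15.8 and 15.2. The U937 groups did not overlap, and the fall of 2.83-fold (log2 fold change -1.42 ± 0.19, limma adjusted p = 2.18e-05) was the second lowest value in that line. In KG-1 EGR1 was near the floor of the arrays in both groups, at 12.3, 11.1 and 9.78 with DMSO and 9.27, 9.61 and 13.9 with R406. These overlapped, with a log2 fold change of -0.031 (95% interval -0.42 to 0.35, limma adjusted p = 0.925), from a start that left little range for a fall. After R406, MOLM-14, U937 and KG-1 were all at 9.27 to 15.8 on this probe set, below the array medians. The size of the falls in MOLM-14 and U937 is therefore limited by the low end of the arrays, and the second EGR1 probe set gave -1.13 in MOLM-14.

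**Figure D2:**
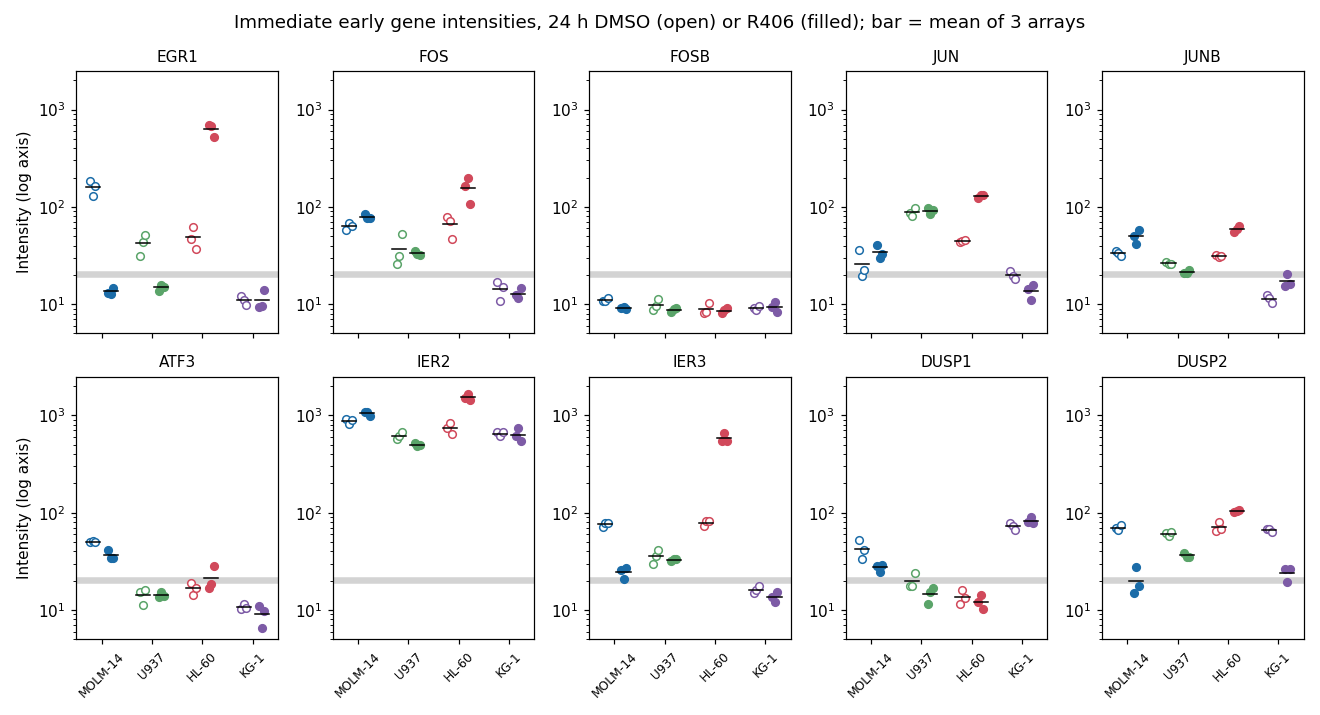
Intensity (log axis) of the 10 genes on each of the 24 arrays, by line, for DMSO (open points) and R406 (filled points), with a bar at the mean of 3 arrays and a grey band over the range of the 24 array medians (19.1 to 21.4). EGR1 and IER3 rise in HL-60 and fall in MOLM-14, DUSP2 falls in MOLM-14, U937 and KG-1, and FOSB stays below the band throughout.

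Among the AP-1 factors, FOS, JUN and JUNB all rose in HL-60, while FOSB and ATF3 did not pass the test there. FOS, the founding partner of JUN in AP-1, read 79.5, 72.3 and 46.4 with DMSO and 163, 198 and 108 with R406 in HL-60. All 3 R406 arrays were above all 3 DMSO arrays, with means of 66.1 ± 17.4 and 156 ± 45.2 and a log2 fold change of 1.22 ± 0.22 (limma adjusted p = 0.000458). Its spread between replicates in HL-60 was wide, with replicate 3 the lowest in both groups. In MOLM-14 FOS read 57.5, 68.3 and 64.0 with DMSO and 83.7, 77.6 and 75.9 with R406. The groups did not overlap, yet the difference of 0.32 ± 0.22 did not pass the test (limma adjusted p = 0.239), although it did with the MOLM-14 arrays fitted alone (0.0169). FOS had overlapping groups in U937 and KG-1, with log2 fold changes of -0.07 (95% interval -0.53 to 0.39) and -0.12 (-0.58 to 0.35). In KG-1 FOS was between 10.7 and 16.9, below the array medians. FOSB, a FOS relative, was between 8.07 and 11.5 on the 24 arrays, below the array median on every one of them. Its difference in MOLM-14, -0.25 ± 0.093 (limma adjusted p = 0.0278), is therefore a difference between dim values, from 11.0 ± 0.445 to 9.10 ± 0.197. In the other lines FOSB had log2 fold changes of -0.13, -0.035 and 0.036 in U937, HL-60 and KG-1.

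JUN, the DNA-binding partner that can also pair with itself, rose in HL-60. Its arrays there read 43.6, 44.8 and 46.1 with DMSO and 124, 133 and 131 with R406. The rise was 2.89-fold, from 44.8 ± 1.25 to 129 ± 4.36, with a log2 fold change of 1.51 ± 0.16 (limma adjusted p = 4.39e-07), the 19th highest value in that line. In KG-1 JUN moved the other way, from 21.9, 19.3 and 18.2 with DMSO to 14.2, 11.0 and 15.8 with R406. No R406 array reached the lowest DMSO array, and the log2 fold change was -0.52 ± 0.16 (limma adjusted p = 0.00936). The DMSO values were around the array medians and the R406 values below them. Without KG-1 R406 replicate 2, the array that lay furthest from its group, the KG-1 difference was -0.38 (limma adjusted p = 0.0787). In MOLM-14 JUN read 36.2, 19.4 and 22.2 with DMSO and 40.3, 29.9 and 32.6 with R406. The groups overlapped, because DMSO replicate 1 was above 2 of the 3 R406 arrays, and the rise of 0.43 ± 0.16 (limma adjusted p = 0.0244) was not called without DMSO replicate 2 (adjusted p = 0.197), DMSO replicate 3 (0.106) or R406 replicate 1 (0.134), or in a fit of the MOLM-14 arrays alone (0.142). U937 had the highest JUN level of the DMSO groups, 88.0 ± 7.85, and a log2 fold change of 0.046 (95% interval -0.28 to 0.37).

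JUNB, a JUN relative that often restrains proliferation, was the one member that rose in 3 lines. In HL-60 it read 31.7, 30.2 and 31.0 with DMSO and 55.1, 59.0 and 62.9 with R406, a log2 fold change of 0.91 ± 0.10 (limma adjusted p = 1.36e-06). In MOLM-14 it read 35.0, 33.6 and 31.0 with DMSO and 50.7, 41.3 and 57.4 with R406, a change of 0.56 ± 0.10 (limma adjusted p = 6.11e-05). The groups were apart in both lines. In KG-1 it read 12.3, 11.5 and 10.4 with DMSO and 15.4, 20.6 and 16.2 with R406, a change of 0.56 ± 0.10 (limma adjusted p = 8.18e-05), also without overlap. Each of these KG-1 values was below the median of its own array. In U937 the arrays went from 27.3, 25.6 and 25.8 to 20.9, 20.8 and 22.2, with all R406 arrays lower. That difference, -0.29 ± 0.10, did not pass the test (limma adjusted p = 0.0753), although it did with the U937 arrays fitted alone (0.0119). ATF3, a CREB/ATF family protein induced by stress, was above the array median on 7 of 24 arrays. Its DMSO arrays in MOLM-14 were nearly identical, at 50.4, 50.6 and 50.5, and its R406 arrays read 41.0, 34.6 and 34.1. The difference of -0.46 ± 0.17 (limma adjusted p = 0.0229) had an adjusted p of 0.0501 without DMSO replicate 2, 0.0667 without R406 replicate 2 and 0.0707 without R406 replicate 3. In HL-60 ATF3 had a log2 fold change of 0.31 (95% interval -0.041 to 0.65, limma adjusted p = 0.273), and its R406 arrays, 17.0, 18.5 and 28.4, overlapped the DMSO arrays, 19.1, 14.1 and 17.0. In U937 and KG-1 it had log2 fold changes of 0.017 and -0.24, also with overlapping groups, and lay below the array medians in both lines.

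IER3, a short-lived protein that modulates cell survival and ERK signalling, was, like EGR1, lower in MOLM-14 and higher in HL-60 with R406. In HL-60 it read 73.0, 81.6 and 82.5 with DMSO and 547, 656 and 547 with R406. The rise was 7.38-fold, from 79.0 ± 5.25 to 583 ± 63.1, with a log2 fold change of 2.86 ± 0.11 (limma adjusted p = 9.09e-14), the second highest of all genes in that line after EGR1. In MOLM-14 it read 71.9, 78.2 and 79.2 with DMSO and 25.8, 20.9 and 26.7 with R406. From nearly the same DMSO level as in HL-60 it thus fell 3.12-fold, a log2 fold change of -1.61 ± 0.11 (limma adjusted p = 2.22e-11). In U937 the arrays read 29.4, 36.2 and 41.5 with DMSO and 32.2, 33.6 and 33.1 with R406. They overlapped, and the log2 fold change was -0.10 (95% interval -0.33 to 0.13). In KG-1 IER3 was at most 17.5, below the array medians, with a log2 fold change of -0.24 (limma adjusted p = 0.0984). IER2, a nuclear protein thought to act in transcription, was well above the array medians on all 24 arrays. In HL-60 it read 737, 838 and 638 with DMSO and 1502, 1643 and 1435 with R406, a 2.07-fold rise (log2 fold change 1.06 ± 0.10, limma adjusted p = 1.84e-07). The groups were far apart. In MOLM-14 it read 921, 816 and 889 with DMSO and 1070.1, 1093 and 977 with R406, a rise of 0.26 ± 0.10 (limma adjusted p = 0.0393) with no overlap. This call was lost with each array's median centred (0.20, adjusted p = 0.101) and without any 1 of 4 of the 6 MOLM-14 arrays: DMSO replicate 2 (adjusted p = 0.146), DMSO replicate 3 (0.0635), R406 replicate 1 (0.0926) or R406 replicate 2 (0.115). In U937 IER2 read 567, 618 and 675 with DMSO and 518, 482 and 494 with R406, with all R406 arrays lower. The difference of -0.31 ± 0.10 did not pass the test (limma adjusted p = 0.0547), although it did under 11 of 32 alternatives, among them the U937 arrays fitted alone (0.0234) and median centring (0.0299). In KG-1 the groups overlapped at a log2 fold change of -0.043 (95% interval -0.26 to 0.17).

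Of the phosphatases, DUSP2 was called in all 4 lines and DUSP1 in MOLM-14 alone. DUSP2, a nuclear phosphatase of ERK and p38 found mainly in blood cells, fell in 3 lines and rose in HL-60. In MOLM-14 it read 69.5, 66.7 and 74.6 with DMSO and 14.9, 27.6 and 17.7 with R406, a fall of 3.50-fold (log2 fold change -1.80 ± 0.14, limma adjusted p = 2.3e-10). In KG-1 it read 68.5, 68.2 and 62.9 with DMSO and 26.4, 19.5 and 26.3 with R406, a fall of 2.77-fold (log2 fold change -1.44 ± 0.14, limma adjusted p = 1.76e-08). The groups were far apart in both lines, and KG-1 showed this fall at a DMSO level like that of the others, unlike EGR1 and IER3, which were near the floor there. With R406, DUSP2 was below the array median in MOLM-14 replicates 1 and 3 and in KG-1 replicate 2. The size of these falls is therefore limited by the low end of the arrays. In U937 DUSP2 read 61.3, 58.2 and 63.0 with DMSO and 38.8, 35.1 and 35.0 with R406, again without overlap (log2 fold change -0.73 ± 0.14, limma adjusted p = 0.0016). In HL-60 it read 64.5, 80.4 and 67.6 with DMSO and 101, 103 and 106 with R406. All R406 arrays were higher, by 0.54 ± 0.14 (limma adjusted p = 0.0114), and without HL-60 DMSO replicate 1 the difference was 0.48 (limma adjusted p = 0.0577). DUSP1, which acts on JNK, p38 and ERK, was not called in HL-60. There it read 11.5, 16.1 and 13.3 with DMSO and 12.1, 14.1 and 10.2 with R406, below the array medians and overlapping, with a log2 fold change of -0.15 (95% interval -0.48 to 0.18). In MOLM-14 it read 52.6, 33.5 and 41.5 with DMSO and 28.3, 24.7 and 29.2 with R406, a difference of -0.60 ± 0.16 (limma adjusted p = 0.00278) with no overlap. In U937 it read 17.5, 17.6 and 24.0 with DMSO and 11.4, 15.4 and 16.7 with R406. The R406 arrays were all lower, and the difference of -0.42 ± 0.16 did not pass the test (limma adjusted p = 0.102). KG-1 had the highest DUSP1 level, 72.7 ± 6.14 with DMSO, and a log2 fold change of 0.19 (95% interval -0.15 to 0.52) with R406.

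**Figure D3:**
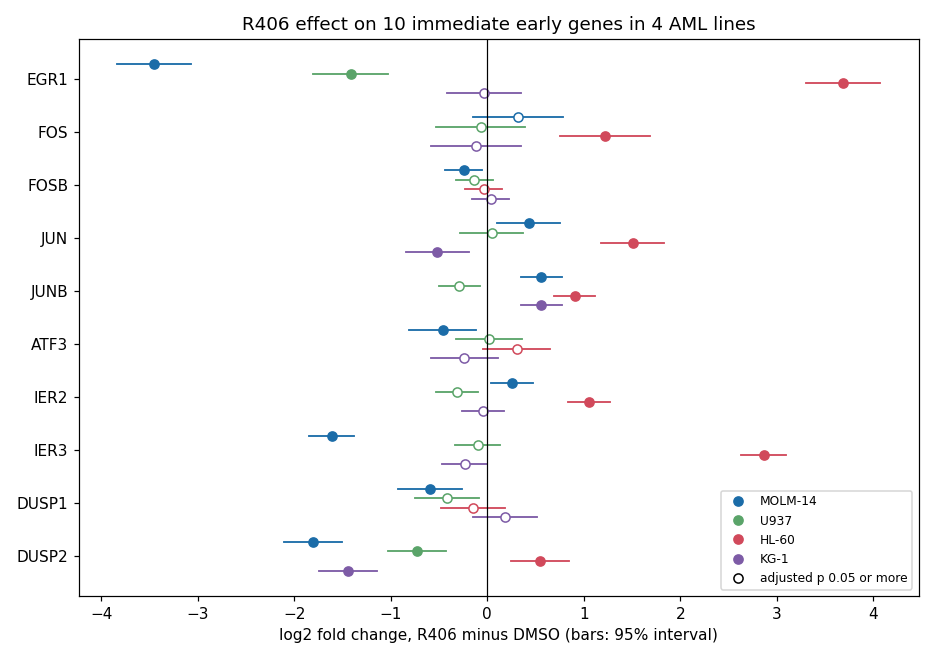
Log2 fold change (R406 minus DMSO, horizontal axis) of the 10 genes in each line, with 95% intervals from the limma fit and open points where the adjusted p was 0.05 or more. HL-60 lies to the right of 0 for EGR1, FOS, JUN, JUNB, IER2, IER3 and DUSP2, and MOLM-14 lies to the left for EGR1, IER3 and DUSP2.

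Several probe sets read the same gene for EGR1, JUN and DUSP1, and the adjusted p-values of this paragraph come from a limma fit over 19724 probe sets. EGR1 is read by 201694_s_at, which stands for it above, and by 201693_s_at, which ranged from 12.8 to 215 over the 24 arrays. The second probe set went from 58.1 ± 20.4 to 24.9 ± 2.64 in MOLM-14 (log2 fold change -1.13, limma adjusted p = 5.42e-06) and from 27.0 ± 4.24 to 197 ± 28.1 in HL-60 (2.82, 1.28e-10). Both EGR1 probe sets thus fell in MOLM-14 and rose in HL-60, with a smaller size in the second. In U937 the second probe set had a log2 fold change of -0.14 (limma adjusted p = 0.767), so the EGR1 call in U937 rested on 1 of the 2 probe sets. JUN is read by 4 probe sets, of which 201464_x_at stands for the gene and 201466_s_at and 213281_at were below the array medians on all 24 arrays. In HL-60, 201465_s_at and 201466_s_at also rose, by 0.84 (limma adjusted p = 0.000338) and 0.99 (2.84e-07). In MOLM-14, 201465_s_at rose by 1.35 (limma adjusted p = 3.51e-08), from 19.6 ± 0.270 to 52.6 ± 14.5, against 0.43 for the probe set that stands for JUN. In KG-1 201465_s_at did not pass the test (-0.23, limma adjusted p = 0.249). The second DUSP1 probe set, 201044_x_at, was below the array medians on all 24 arrays and rose by 0.25 in MOLM-14 (limma adjusted p = 0.0249), opposite to the fall of 201041_s_at. With the probe sets of a gene averaged, DUSP1 was not called in MOLM-14 (-0.17, limma adjusted p = 0.108) and JUN was not called in KG-1 (-0.16, adjusted p = 0.0917).

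**Figure D4:**
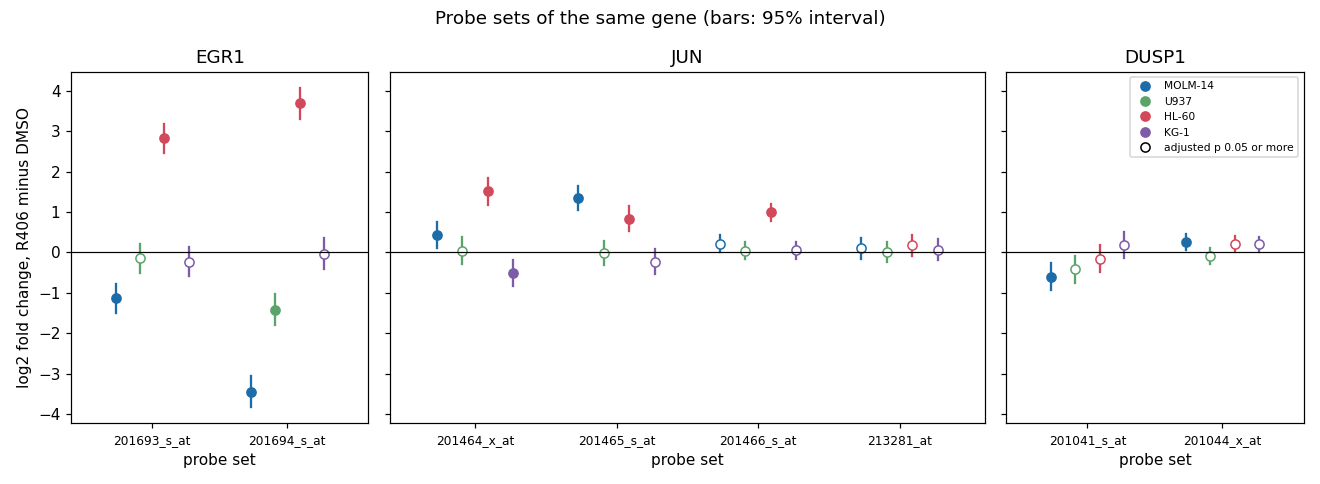
Log2 fold change (R406 minus DMSO, vertical axis, bars for 95% intervals) of every probe set of EGR1, JUN and DUSP1 in each line, with open points where the adjusted p was 0.05 or more. Both EGR1 probe sets lie above 0 in HL-60 and below 0 in MOLM-14, whereas the DUSP1 probe sets lie on opposite sides of 0 in MOLM-14.

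The size of the R406 effect differed between the 4 lines for 9 of the 10 genes by limma's F test, against 54.9% of all genes. FOSB was the exception (limma adjusted p = 0.264). Between U937 and HL-60, 7 of 10 genes had different effects and 7.23% of all genes did. Those 7 were EGR1, FOS, JUN, JUNB, IER2, IER3 and DUSP2, with the higher effect in HL-60 for each. For EGR1 the effect in U937 minus that in HL-60 was -5.10 ± 0.26 (SE, limma adjusted p = 2.39e-11), and for IER3 it was -2.96 ± 0.16 (3.77e-11). Between MOLM-14 and HL-60, 7 of 10 genes differed too, where the background was 45.3% of all genes. The effect in MOLM-14 minus that in HL-60 was -7.14 ± 0.26 for EGR1 (limma adjusted p = 2.63e-15), -4.47 ± 0.16 for IER3 (1.73e-15) and -2.35 ± 0.20 for DUSP2 (2.19e-09). It was -1.08 for JUN, -0.90 for FOS and -0.80 for IER2, all past the test. JUNB rose in both lines, and its effects differed by -0.35 (95% interval -0.65 to -0.046, limma adjusted p = 0.056), which did not pass the test. HL-60 and KG-1 differed for 6 of 10 genes (35.7% of all genes), with DUSP2 at 1.99 ± 0.20 (limma adjusted p = 8.24e-08). MOLM-14 differed from U937 for 5 of 10 (43.8%) and from KG-1 for 4 of 10 (33.5%), and U937 differed from KG-1 for 4 of 10 (33.3%). The fall of DUSP2 in MOLM-14 and KG-1 differed by -0.36 (95% interval -0.78 to 0.063), which did not pass the test, while DUSP1 differed between these lines by -0.78 (limma adjusted p = 0.00947).

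The levels without drug differed between lines for 9 of the 10 genes (limma F test), where 68.1% of all genes did, and DUSP2 was the exception (limma adjusted p = 0.515). DUSP2 was at 60.8 to 70.8 in all 4 lines. EGR1 was highest in MOLM-14 (159), then HL-60 (48.9) and U937 (42.0), which did not differ beyond their spread (limma adjusted p = 0.405), and lowest in KG-1 (11.0). FOS was at 66.1 in HL-60 and 63.3 in MOLM-14, which were not distinguished (adjusted p = 0.939), followed by U937 (36.5) and KG-1 (14.2), each lower than the line before it. IER3 had the same order, with HL-60 (79.0) and MOLM-14 (76.4) not distinguished (adjusted p = 0.79), U937 at 35.7 and KG-1 at 16.2. JUN was highest in U937 (88.0), then HL-60 (44.8), MOLM-14 (25.9) and KG-1 (19.8), and the last pair did not pass the test (adjusted p = 0.0917). JUNB was at 33.2, 31.0 and 26.2 in MOLM-14, HL-60 and U937, where neighbours did not pass the test (adjusted p = 0.507 and 0.0695), and lower in KG-1 (11.4, adjusted p = 1.74e-09). Its levels in MOLM-14 and U937, which are not neighbours, did differ (limma adjusted p = 0.0105). ATF3 was highest in MOLM-14 (50.5) and at most 16.7 in the other lines, whose neighbours in the order did not differ beyond their spread. Of those lines HL-60 was higher than KG-1 (limma adjusted p = 0.00507). IER2 ran from 620.1 in U937 to 875 in MOLM-14, with no pair of neighbours past the test. MOLM-14 was higher than U937 (limma adjusted p = 0.000303) and KG-1 (0.0012). DUSP1 alone was highest in KG-1 (72.7), followed by MOLM-14 (42.5), U937 (19.7) and HL-60 (13.6), each lower than the line before it. FOSB was dim in all 4 lines, and no pair of neighbours passed the test, although MOLM-14 was higher than HL-60 (limma adjusted p = 0.0136) and KG-1 (0.0316). By pairs of lines, the DMSO levels of 8 members differed between MOLM-14 and U937 (47.0% of all genes), 5 between MOLM-14 and HL-60 (46.1%), 8 between MOLM-14 and KG-1 (51.2%), 4 between U937 and HL-60 (48.2%), 6 between U937 and KG-1 (50.9%) and 7 between HL-60 and KG-1 (48.7%). KG-1 had the lowest mean for EGR1, FOS, JUN, JUNB, ATF3 and IER3, 6 of the 10 genes. For JUN and ATF3 its difference from the next lowest line did not pass the test (limma adjusted p = 0.0917 and 0.0808). The share of all genes with KG-1 lowest was not counted.

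The genes whose 8 group means were most like those of EGR1 were IER3 (Pearson r = 0.95), TNF (0.93), DBN1 (0.92), ZNF143 (0.90) and MED17 (0.90), taken as the 5 highest of 6522 genes with a group mean of at least 6 on the log2 scale. Without the HL-60 R406 group, r over the 7 other means was 0.88, 0.91, 0.93, 0.87 and 0.83 in the same order. TNF, an inflammatory cytokine that is itself rapidly induced, had log2 fold changes of -4.31 in MOLM-14, -0.63 in U937, 1.35 in HL-60 and 0.050 in KG-1. The 5 genes most like IER3 were EGR1 (0.95), MTF1 (0.93), AGFG1 (0.93), ACVR1B (0.92) and COX17 (0.92), and without the HL-60 R406 group r was 0.88, 0.84, 0.80, 0.82 and 0.87. EGR1 and IER3 were therefore each other's nearest gene over these groups, as a description of 8 means that share their arrays.

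Other immediate early genes, 20 of 22 listed and measured here (EGR2 and BTG2 were not analysed here), were called in both directions in every line. In HL-60 11 of the 20 were higher and 1 lower, with a median log2 fold change of 0.37 (all genes -0.0029), where 7.19% of all genes were higher and 7.97% lower. SGK1, a kinase induced by glucocorticoids and growth factors, rose from 82.3 to 185 (log2 fold change 1.15, limma adjusted p = 3.42e-06), MCL1, an anti-apoptotic BCL2 relative, from 585 to 1066 (0.87) and MAFF, a small MAF protein, from 25.8 to 47.0 (0.84). In MOLM-14 13 were higher and 6 lower (median 0.31, all genes 0.068), where 31.1% of all genes were higher and 25.0% lower. SGK1 rose from 38.6 to 302 (2.95) and KLF6, a zinc finger factor, from 118 to 302 (1.35). EGR3, a relative of EGR1, fell from 23.2 to 5.21 (-1.94, limma adjusted p = 5.38e-12). In U937 3 were higher and 3 lower (6.12% and 5.43% of all genes), and the lower ones were MAFF (-0.80), the FOS relative FOSL1 (-0.73) and the urokinase receptor PLAUR (-0.46). The 3 higher calls in U937 fell to 0 without U937 DMSO replicate 1, U937 DMSO replicate 2, U937 R406 replicate 2 or U937 R406 replicate 3, whereas the 3 lower calls stayed at 3 without any 1 array. In KG-1 4 were higher and 5 lower (23.6% and 20.9% of all genes). PPP1R15A, a phosphatase subunit of the stress response, rose from 27.9 to 84.9 (1.57), ZFP36, which binds AU-rich messages, from 48.6 to 120.2 (1.28), and TRIB1, a pseudokinase, fell from 206 to 107 (-0.95). Without KG-1 R406 replicate 2, 3 were lower in KG-1, and the 1 lower call in HL-60, GADD45B, became 0 without HL-60 DMSO replicate 1 or HL-60 R406 replicate 3.

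Of the AP-1 partners outside the immediate early set, 6 were analysed here, and BATF3 was called in every line. BATF3, a partner of JUN proteins, read 175, 146 and 175 with DMSO and 11.7, 11.1 and 11.0 with R406 in MOLM-14, a log2 fold change of -3.76 ± 0.10 (limma adjusted p = 2.2e-18). The fall took it from well above to below the array medians. It fell in U937 (250.4 to 127, -0.97) and KG-1 (22.7 to 12.1, -0.86) and rose in HL-60 (13.5 to 20.2, 0.54, limma adjusted p = 0.000427). This is the same set of directions as for DUSP2. In all, 2 of the 6 were higher and 1 lower in MOLM-14, 0 and 1 in U937 (0 and 2 at an unadjusted p under 0.05), 1 and 0 in HL-60 (2 and 0 unadjusted) and 2 and 3 in KG-1. Of all genes, 56.2% were called in MOLM-14, 11.5% in U937, 15.2% in HL-60 and 44.5% in KG-1, so that the MOLM-14 count, 3 of 6, is near its background. Without MOLM-14 DMSO replicate 1, DMSO replicate 3 or R406 replicate 3, 1 was higher in MOLM-14, and without KG-1 R406 replicate 2, 2 were lower in MOLM-14 and 2 in U937. The count higher in HL-60 was 3 without KG-1 R406 replicate 2 and at most 2 without any other single array. MAFG, a small MAF protein, rose in MOLM-14 (0.86) and KG-1 (1.12), ATF7 in MOLM-14 (0.26, between 7.22 and 11.2 with overlapping groups) and ATF2 in KG-1 (0.55).

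Upstream factors and brakes, of which 15 were analysed here, gave 6 higher and 4 lower in MOLM-14, 5 and 0 in HL-60 (8 and 0 at an unadjusted p under 0.05), 8 and 1 in KG-1 and 0 and 0 in U937 (1 and 1 unadjusted). Of all genes, 56.2% were called in MOLM-14, 15.2% in HL-60, 44.5% in KG-1 and 11.5% in U937, so that 10 of 15 in MOLM-14 is near its background. Without KG-1 R406 replicate 2, 2 were lower in KG-1. NAB2, a corepressor that binds EGR proteins and is itself an EGR1 target, rose in HL-60 and fell in MOLM-14, as EGR1 did. It read 13.4, 13.1 and 14.0 with DMSO and 35.1, 35.2 and 29.7 with R406 in HL-60 (log2 fold change 1.24 ± 0.13, limma adjusted p = 3.22e-07). In MOLM-14 it read 22.6, 27.0 and 25.2 with DMSO and 15.2, 12.6 and 13.4 with R406 (-0.82 ± 0.13, limma adjusted p = 7.58e-06). Neither line had overlapping groups. NAB2 lay below the array medians with DMSO in HL-60 and with R406 in MOLM-14. In U937, where the probe set standing for EGR1 also fell, NAB2 had a log2 fold change of 0.028 (limma adjusted p = 0.952). Its U937 means were 13.8 with DMSO and 14.0 with R406, below the array medians, which left little range for a fall. NAB1, the relative of NAB2, rose in HL-60 (0.52). ELK3, a ternary complex factor that works with serum response factor, rose in MOLM-14 (0.80), HL-60 (0.52) and KG-1 (0.85). Serum response factor itself, SRF, fell in MOLM-14 from 150 to 90.9 (-0.72, limma adjusted p = 1.67e-07) and was not called in the other lines. ELK1 fell in MOLM-14 (-0.45) and KG-1 (-0.32) and was not called in U937 or HL-60. The CREB-binding coactivator CREBBP rose in MOLM-14 (0.85), HL-60 (0.45) and KG-1 (1.10), and RPS6KA5 (MSK1), a kinase that phosphorylates CREB and histone H3, rose from 342 to 845 in KG-1 (1.28).

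**Figure D5:**
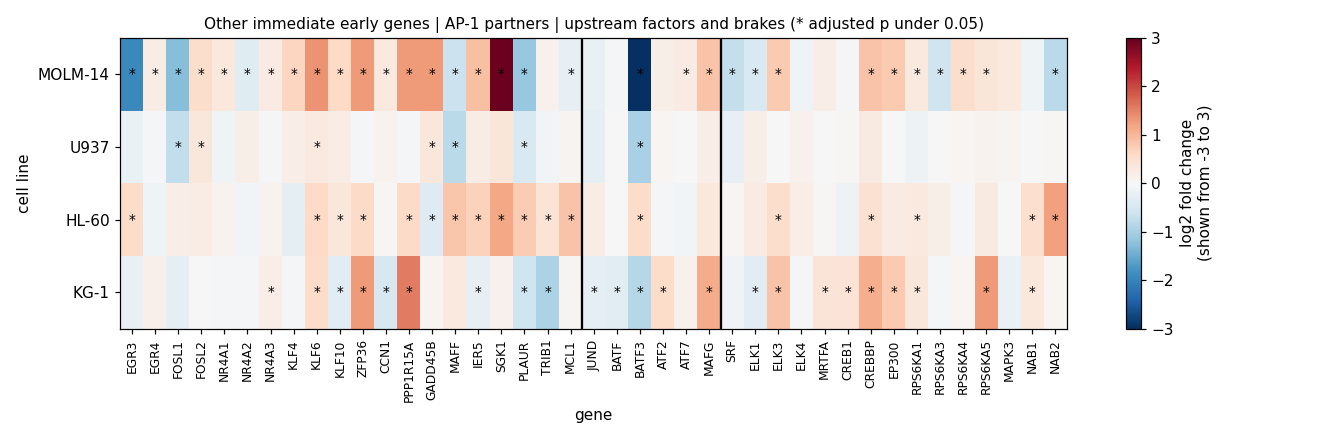
Log2 fold change (R406 minus DMSO, colour, shown from -3 to 3) of the other immediate early genes, AP-1 partners and upstream factors and brakes (columns) in each line (rows), with an asterisk where the limma adjusted p was under 0.05. SGK1 rises in MOLM-14 and HL-60, BATF3 falls in MOLM-14, U937 and KG-1 and rises in HL-60, and U937 has the fewest asterisks.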

How the data were processed

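Expression in 4 AML lines was measured on 24 Affymetrix HT U133A arrays. The deposited values are probe set intensities on a linear scale (judged from their range), which the authors made with RMA per the submitters' processing notes; the version and the genome build are not given in the sources used here. The 22277 probe sets included 62 controls, 568 that name several genes and 1923 that name no gene. These were left out, and the probe set with the highest mean stood for each of 12165 genes. A model of 8 group means was fitted to log2(intensity + 1) with limma 3.58.1 (R 4.3.3) by lmFit and then eBayes, leaving 16 residual degrees of freedom, and genes were called at a Benjamini-Hochberg adjusted p under 0.05 over all genes. Fold changes of dim genes are understated on this scale. The model was tested on simulated data. The genes named are all members and, from each further list, up to 3 called genes with the largest change in each line. SRF and ELK1 are named in addition. The members and lists were chosen with earlier results of these data known. Promoters came from RefSeq. Alternatives were repeated quantile normalization, median centring, a pseudocount of 16, the dimmest 33.3% of genes left out, averaged probe sets, an eBayes trend, fits of 1 line, a replicate block and each array left out in turn.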

Additional observations from a re-analysis of the deposited data

Results flagged for a closer look

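The R406 effect differed between the 4 lines for 9 of the 10 immediate early genes by limma's F test, adjusted over all genes. The adjusted p was 1.6e-14 for EGR1, 1.09e-14 for IER3, 6.86e-09 for DUSP2, 2.63e-07 for IER2, 5.44e-07 for JUN, 2.06e-06 for JUNB, 0.00276 for FOS, 0.0254 for DUSP1 and 0.042 for ATF3. EGR1 fell in MOLM-14 and U937 and rose in HL-60, IER3 fell in MOLM-14 and rose in HL-60, and DUSP2 fell in MOLM-14, U937 and KG-1 and rose in HL-60. JUN, JUNB, IER2 and FOS rose in HL-60, and the JUNB effect there was not distinguished from that in MOLM-14 (adjusted p = 0.056) or KG-1 (0.0688).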

How the results depend on the processing

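Of the 21 calls over the 10 genes and 4 lines, 14 were kept under every alternative that could be fitted, and 7 were lost under at least 1: JUN, IER2, FOSB, ATF3 and DUSP1 in MOLM-14, DUSP2 in HL-60 and JUN in KG-1. No member's called log2 fold change changed sign. FOSB, among the dimmest 33.3% of genes, has no value when these are left out. The count of members lower in U937, 2, was 4 with median centring and 4 in a fit of U937 alone. The count lower in KG-1, 2, was 1 with averaged probe sets. Leaving out 1 array at a time, the members higher in MOLM-14 numbered 1 to 3 (1 without MOLM-14 DMSO replicate 2, DMSO replicate 3 or R406 replicate 1), those lower in U937 2 to 4 (4 without KG-1 R406 replicate 2) and those lower in KG-1 1 to 3 (1 without KG-1 R406 replicate 2). Those higher in HL-60 numbered 6 to 7, those lower in MOLM-14 4 to 6, and those whose effect differed between lines 7 to 9. FOSB in MOLM-14 was lost without DMSO replicate 3 (adjusted p = 0.0931), R406 replicate 1 (0.0572) or R406 replicate 3 (0.0668). With averaged probe sets, MCL1 in KG-1 was at -0.30 (main value 0.087) and NAB1 in KG-1 at -0.093 (main value 0.31). The cause was not tested in these cases.

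With a replicate block, 2 members were higher in MOLM-14 (IER2 had an adjusted p of 0.0502) and 3 were lower in U937 (DUSP1, 0.0266), the effect differed between lines for 8 members, and 7 were higher in HL-60. Same-numbered arrays did not deviate together: over 12 pairs the correlation of deviations was -0.0796 to 0.0786, so the numbers were not used as a pairing. Median centring moved the calls over all genes from 744 higher and 660 lower to 596 and 807 in U937, from 3787 and 3045 to 3228 and 3327 in MOLM-14, from 2870 and 2540 to 2517 and 2894 in KG-1 and from 875 and 969 to 755 and 1105 in HL-60. The share of higher calls in U937 thus went from 53.0% to 42.5%. Calls gained under at least 1 alternative were JUNB, IER2 and DUSP1 in U937, FOS in MOLM-14 and IER3 in KG-1. Signal near the low end of the arrays limits FOSB on all arrays and EGR1 with R406 in MOLM-14 and U937. It also limits EGR1, FOS, JUNB, IER3 and ATF3 in KG-1, and JUN with R406 in KG-1. The same holds for ATF3 in U937, DUSP1 with R406 in U937 and DUSP1 in HL-60. It holds as well for ATF3 in HL-60 apart from R406 replicate 3, and on some R406 arrays for DUSP2 in MOLM-14 and KG-1.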
